A study of Mus musculus with 2 samples.

Results

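A set of 9 genes that encode transcription factors of myeloid cells (Sall1, Mef2c, Maf, Spi1, Cebpb, Klf4, Batf3, Zbtb46 and Tcf4) was followed through the cell classes of GL261 mouse gliomas. They were found by their symbols among the 31053 genes of the count matrices, and all 9 were present. Single cells came from 2 droplet libraries of C57BL/6 J background, each pooled from 3 male mice of 8 to 12 weeks, so that differences between mice within a group cannot be seen. The WT library is from animals with both copies of Siglec1, the gene for CD169, intact, and the CD169-DTR library is from heterozygous animals in which human HBEGF, the diphtheria toxin (DT) receptor, sits in 1 copy of Siglec1, so that cells using the Siglec1 promoter can be killed by DT. Both groups received 100000 GL261 cells in the brain and 40 ng/g DT on day -1 and day 4, and CD45.2+, propidium iodide-negative cells were sorted at 10 dpi.

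A barcode counted as a cell when it held at least 1000 unique molecular identifiers (UMIs, each 1 captured transcript) and at most 17% mitochondrial UMIs. This left 10107 cells in WT (median depth 7776 UMIs) and 7604 in CD169-DTR (median depth 8099.5 UMIs), and 21 barcodes occurred in both libraries. The cells were clustered without the 9 genes and without 52 other myeloid transcription factors, so that none of these factors took part in defining a class. Clusters were named from marker genes and not from a sort. Microglia (4057 WT and 4681 CD169-DTR cells), macrophages (2289 and 740), Cd209a dendritic cells (844 and 193), type 1 conventional dendritic cells (cDC1; 187 and 32), Ccr7-expressing migratory dendritic cells (146 and 14) and plasmacytoid dendritic cells (pDC; 102 and 11) are the myeloid classes compared. The T cells (474 and 218) and NK cells (330 and 86) served as a background, since most of the 9 genes belong to the myeloid lineage. A level is the number of UMIs of a gene per 1000000 UMIs of the class (CPM). With 1 library per group no test was possible, and each interval is an exact 95% interval that covers counting error only. Counts near the 3' end of a transcript do not allow levels to be compared between genes.

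Spi1 encodes PU.1, the ETS factor that all myeloid cells need, while Sall1, Mef2c and Maf act with it to set the enhancers of microglia and other tissue macrophages. Cebpb and Klf4 serve monocytes and inflammatory macrophages. Batf3 is required for cDC1, Zbtb46 marks the conventional dendritic lineage, and Tcf4 (E2-2) maintains pDC. In gliomas such genes separate resident microglia from cells that entered from the blood.

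The 10 microglia markers summed to 23642 CPM in WT and 24580 CPM in CD169-DTR microglia, against 2285 and 2721 CPM in macrophages. The 13 macrophage markers summed to 22325 and 21563 CPM in macrophages, against 1248 and 988 CPM in microglia. The next 2 measurements bear on genes that are far higher in one class than in another. The estimate of free RNA per droplet was 167 UMIs for WT (2.22% of a median immune cell) and 110 UMIs for CD169-DTR (1.43%). More than 10 UMIs of microglia markers were held by 7.74% of the T, NK and B cells in WT and by 5.14% in CD169-DTR, and doublets were not removed.

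For the positions, GENCODE M21 places Sall1 at chr8:89027235-89044162, Maf at chr8:115682942-115707794, Mef2c at chr13:83504034-83667080, Klf4 at chr4:55527143-55532466 and Batf3 at chr1:191097847-191108945 of the mouse build GRCm38. Spi1 (chr2:91082390-91115756), Cebpb (chr2:167688915-167690418) and Zbtb46 (chr2:181387762-181459426) share chromosome 2 with Siglec1 (chr2:131069220-131086765), the site of the DTR insertion, from which they lie 39.95, 36.6 and 50.3 Mb away. Exons of Tmem189 overlap those of Cebpb, and exons of Gm15655 those of Maf, both on the opposite strand. The strand setting of the counting is not given in the sources used here, so whether reads of these pairs were kept apart is not known. RefSeq held promoters (GRCm38.p6) for 6 of the 8 genes looked up. The 250 bases before the start site are shown for 1 start of Mef2c and of Sall1, which stood apart in microglia, and of Zbtb46, which stood apart in dendritic cells. Capitals mark GAGGAA or TTCCTC, the core that PU.1 binds, and TGANTCA, the AP-1 element that BATF factors also use. Both strands were searched. The first stood in 23.2% and the second in 6.75% of 32817 RefSeq promoters of this length. Mef2c (chr13:83503784-83504033, plus strand) held 1 PU.1 core, Zbtb46 (chr2:181424389-181424638, minus strand) held 1 AP-1 element, and Sall1 (chr8:89044163-89044412, minus strand) held neither. Mef2c and Sall1 each have 3 starts in the table, of which the one that borders the annotated gene is shown. The single Zbtb46 start in the table lies inside the annotated gene, so its window is not the sequence before the outer start of that gene. Of the other 2 of Mef2c, the window at chr13:83523406-83523655 held 1 PU.1 core and no AP-1 element, and that at chr13:83573357-83573606 held 1 AP-1 element and no PU.1 core. Neither of the other 2 of Sall1 held a match.
Mef2c: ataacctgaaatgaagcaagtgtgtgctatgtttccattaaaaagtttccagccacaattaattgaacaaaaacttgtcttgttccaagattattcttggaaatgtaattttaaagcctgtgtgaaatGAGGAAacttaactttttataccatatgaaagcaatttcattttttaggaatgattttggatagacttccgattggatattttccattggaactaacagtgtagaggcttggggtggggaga
Sall1: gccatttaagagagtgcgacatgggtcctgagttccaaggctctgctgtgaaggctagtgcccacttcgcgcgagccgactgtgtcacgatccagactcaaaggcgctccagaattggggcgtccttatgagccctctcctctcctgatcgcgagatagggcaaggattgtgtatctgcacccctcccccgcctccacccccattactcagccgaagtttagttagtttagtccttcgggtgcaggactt
Zbtb46: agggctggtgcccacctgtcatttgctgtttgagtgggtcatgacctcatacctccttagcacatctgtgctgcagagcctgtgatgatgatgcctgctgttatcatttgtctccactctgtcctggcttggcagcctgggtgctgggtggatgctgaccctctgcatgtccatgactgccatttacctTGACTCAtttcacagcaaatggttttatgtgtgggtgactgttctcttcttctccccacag

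Of the 9 genes, Sall1, Mef2c and Maf were the ones at their highest level among the myeloid classes in microglia. Sall1, a zinc finger repressor that microglia use and other macrophages mostly lack, stood at 156 CPM (152 to 160) in WT and 165 CPM (161 to 169) in CD169-DTR microglia. In macrophages it stood at 12.9 CPM (11.3 to 14.6) and 12.997 CPM (10.8 to 15.5). The log2 ratio of macrophages over microglia was -3.60 in WT (-3.79 to -3.41) and -3.67 in CD169-DTR (-3.93 to -3.41). Mef2c, a MADS-box factor that restrains inflammatory responses of microglia, was at 645 and 709 CPM in microglia and at 104 and 122 CPM in macrophages, with log2 ratios of -2.63 and -2.54. Maf, a bZIP factor of tissue macrophages, was at 529 and 535 CPM in microglia and at 162 and 150 CPM in macrophages, with log2 ratios of -1.71 and -1.83. The microglial value of each of the 3 genes lay above every other myeloid class in both libraries, and no intervals overlapped.

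Outside the microglia the 3 genes differed in what remained. Sall1 in macrophages was at 8.24% of its microglial level in WT and 7.88% in CD169-DTR, and the summed 10 microglia markers were at 9.66% and 11.1% of theirs. In T cells Sall1 was at 5.46% and 4.92%, beside 6.77% and 5.17% for the markers, and in granulocytes at 13.6% and 16.2%, beside 13.8% and 16.6%. When the 8% of cells with the highest doublet score were left out, Sall1 in macrophages went to 4.18 CPM in WT and 7.81 CPM in CD169-DTR. It went from 7.35 to 1.40 CPM in WT and from 10.5 to 7.47 CPM in CD169-DTR Cd209a dendritic cells, and from 5.35 to 1.36 CPM and from 14.9 to 14.3 CPM in cDC1. Sall1 was above the share of the markers in CD169-DTR cDC1 (9.03% beside 6.68%, 10 UMIs), CD169-DTR migratory dendritic cells (18.5% beside 13.1%, 7 UMIs) B cells of both libraries (19.2% and 17.2% beside 18.8% and 13.3%), CD169-DTR choroid plexus cells (6.49% beside 5.76%, 33 UMIs) and CD169-DTR basophils or mast cells (7.44% beside 1.65%, 1 UMI). Some of the listed markers are also used by other classes, and Sparc gave 2088 of the 3553 CPM of the list in WT endothelial cells and Siglech 1943 of the 3123 CPM in WT pDC, so the share of the markers is a rough scale there. Over all macrophages Sall1 was below the share of the markers in both libraries, and its level there was not read as expression. By cluster it was below that share in the Gpnmb and Retnla clusters of both libraries and the WT Ear2 cluster. It was above it in the Vcan cluster (7.99% and 11.2% beside 6.68% and 8.40%) and in the CD169-DTR Ear2 cluster (13.4% beside 10.1%, 29 UMIs), where the counting intervals of Sall1 included the share of the markers. Maf in macrophages (30.6% and 28.0% of the microglial level) and Mef2c (16.2% and 17.2%) lay above the share of the markers. Mef2c was also high in B cells (671 and 855 CPM), where it is a known lineage gene, in pDC (395 and 317 CPM) and in endothelial cells (357 and 348 CPM), and Maf in T cells (224 and 164 CPM), so the lymphocytes are no blank for these 2 genes.

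**Figure D1:**
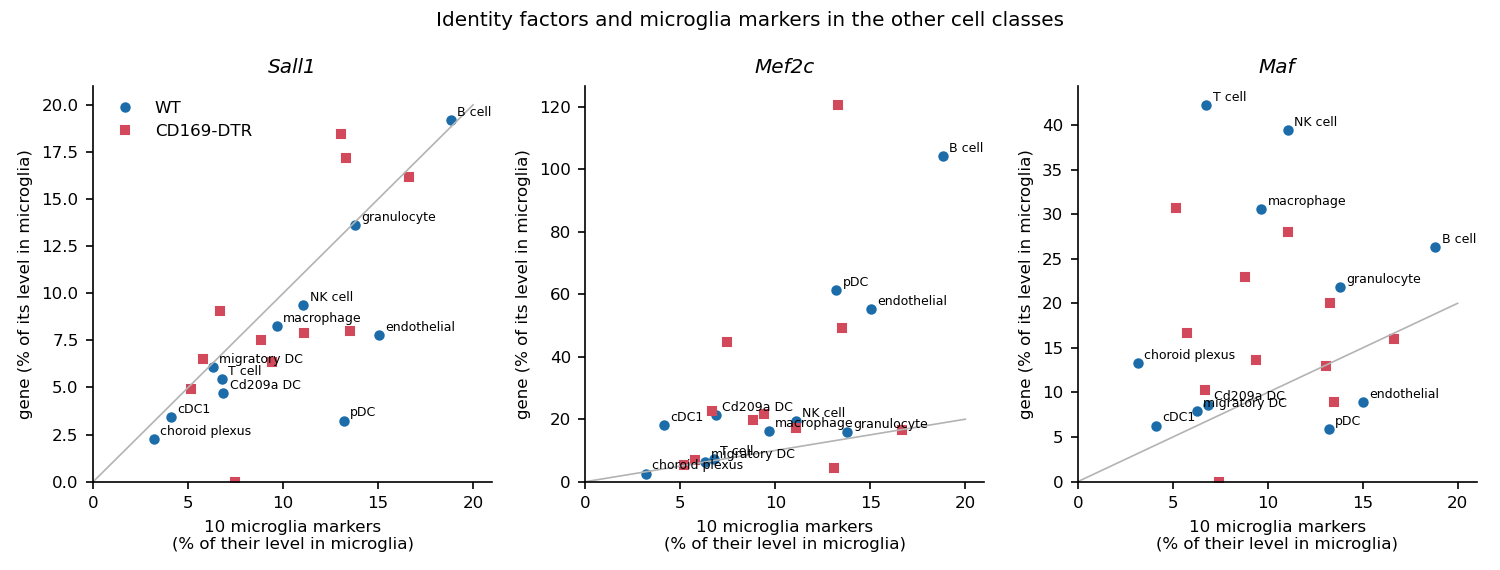
Level of Sall1, Mef2c and Maf in each cell class (y axis, % of the level in microglia of the same library) against the summed level of the 10 microglia markers (x axis, % of their level in microglia); each point is 1 class in 1 library, WT classes are labelled, the line marks equal percentages, and basophils or mast cells are not drawn. Sall1 lies near or below the line in most classes, whereas Mef2c lies far above it in B cells (104% in WT), pDC and endothelial cells (55.3% in WT), and Maf in T cells (42.3% in WT), NK cells and macrophages.

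Cells with at least 4000 UMIs were thinned to that depth, and shallower cells were left out. This kept 3692 of 4057 WT and 4354 of 4681 CD169-DTR microglia. A Sall1 UMI was then held by 47.3% (45.7 to 48.9) of WT and 50.1% of CD169-DTR microglia, and by 3.42% and 5.04% of macrophages. In the T and NK cells, which should lack Sall1, the shares were 2.94% and 1.53%. Mef2c was found in 86.1% and 88.7% of thinned microglia against 24.9% and 31.6% of macrophages, and Maf in 72.3% and 74.1% against 33.7% and 34.7%. Without thinning the Sall1 shares in microglia were 66.9% and 70.2%. The macrophage shares after thinning likewise rest on the deeper cells. The Slfn4 cluster of macrophages, seen at a cluster resolution of 2, had median depths of 3394 UMIs in WT and 6360 UMIs in CD169-DTR. Most of its WT cells were thus left out. Its Sall1 level of 32.3 CPM in WT was the highest of the WT macrophage clusters at that resolution.

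Within the microglia the 3 genes were graded. Their highest level was in the cluster led by Slc2a5 and P2ry12, a purinergic receptor of resting microglia, with Sall1 at 275 CPM in WT and 271 CPM in CD169-DTR cells. The lowest Sall1 level was in the cluster led by Cd5l, Igf1 and Spp1, at 69.6 and 72.1 CPM, which is 3.95-fold and 3.76-fold below. Mef2c went from 995 and 1038 CPM to 312 and 309 CPM between the same 2 clusters. Maf went from 1093 and 1089 CPM to 256 CPM in WT (cluster led by Il1a and Atf3) and to 184 CPM in CD169-DTR (Cd5l cluster). The dividing cells led by Mki67 held Sall1 at 145 and 139 CPM, between these ends. The summed microglia markers moved along the same clusters, from 37848 CPM in the Slc2a5 cluster to 13753 CPM in the Cd5l cluster of the WT library, while the median depth was 5149 and 13731 UMIs. A further cluster led by C4b, Lpl and Cst7 (674 WT and 695 CD169-DTR cells, 6.67% and 9.14% of all cells) was left unnamed, because its leading genes held Cox6a2 of the pDC list and no microglia marker, although 9 of the 10 microglia markers were detected in it. It held Sall1 at 134 and 143 CPM, Mef2c at 534 and 578 CPM and Maf at 348 and 334 CPM.

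Spi1 varied less over the same 8 clusters, with 359 to 463 CPM in WT and 348 to 536 CPM in CD169-DTR microglia. Cebpb, which drives inflammatory genes downstream of cytokine and toll-like receptors, took another course. It was at 344 and 350 CPM in the Uhrf1 cluster and at 1780 and 1751 CPM in the cluster led by Il1a, Dusp8 and Atf3. That cluster also had the highest sum of 15 genes known to respond to cell dissociation, 28802 CPM in WT and 32979 CPM in CD169-DTR, against 4687 and 5440 CPM in the Uhrf1 cluster. The 2 measures did not keep the same order over the other clusters. The Slc2a5 cluster had the second highest sum (11037 and 13418 CPM) with Cebpb at 355 and 357 CPM, and the Ccnb2 cluster the lowest sum (3407 and 3855 CPM) with Cebpb at 603 and 523 CPM. The part of dissociation in the Cebpb values was not tested.

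**Figure D2:**
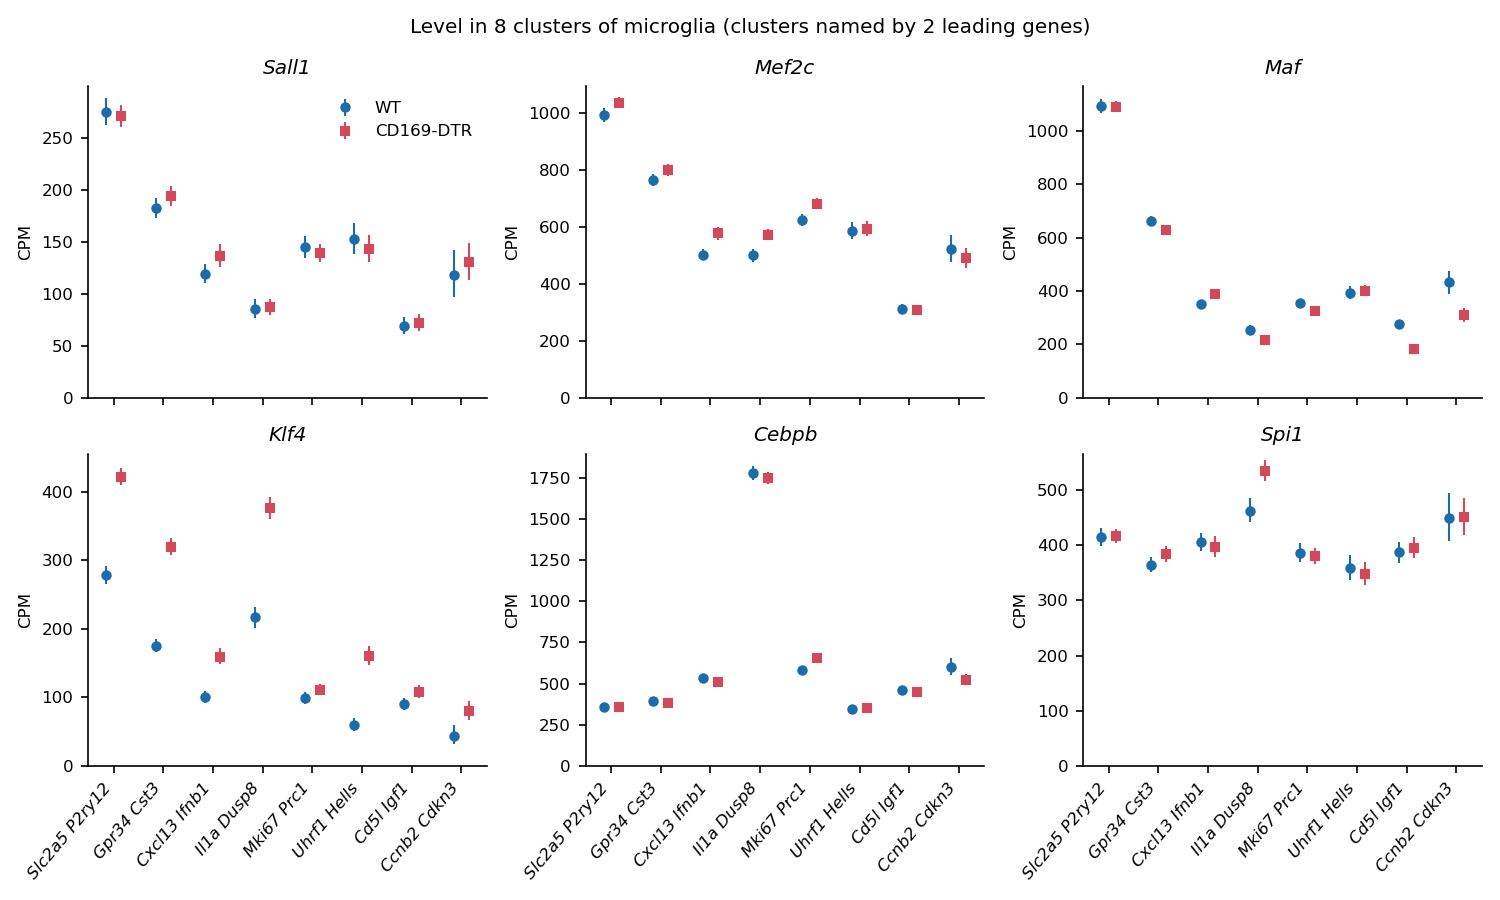
Level of 6 genes (y axis, CPM) in the 8 clusters of microglia with at least 50 cells (x axis, named by leading genes), with points for the WT and CD169-DTR libraries and bars for exact 95% Poisson intervals. Sall1, Mef2c and Maf are highest in the Slc2a5 P2ry12 cluster, Cebpb in the Il1a Dusp8 cluster, and Klf4 is higher in the CD169-DTR library in all 8 clusters.

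In macrophages over microglia, 4 of the 9 genes (Sall1, Mef2c, Maf and Zbtb46) were at least 2-fold lower in both libraries, where 20.8% of the 14122 genes with 20 UMIs were, and 1 (Cebpb) was at least 2-fold higher, where 8.96% were. The median log2 ratio of the 9 genes was -0.75 in WT and -0.90 in CD169-DTR, beside -0.39 and -0.38 over all genes. Cebpb was at 2271 CPM (2249 to 2292) in WT and 1526 CPM (1501 to 1550) in CD169-DTR macrophages, against 591 and 620 CPM in microglia. Its log2 ratio was 1.94 in WT (1.92 to 1.97) and 1.30 in CD169-DTR (1.27 to 1.33). Granulocytes were higher, at 6571 and 6452 CPM, and so were the 9 basophils or mast cells of CD169-DTR, at 1853 CPM. Klf4, a zinc finger factor of monocytes, was at 377 and 364 CPM in macrophages. Its log2 ratio over microglia was 1.31 in WT and 0.49 in CD169-DTR, so that it passed 2-fold in the WT library alone. Spi1 differed by 0.50 and 0.20, below the threshold in both. Zbtb46 in this comparison rests on 14 and 7 UMIs in macrophages, and its ratio no longer passed 2-fold with every cell at the same weight (-0.54 in WT) or without integration (-0.65 in CD169-DTR).

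Among the macrophage clusters, Cebpb was lowest in the one led by Gpnmb, Pf4 and Ms4a7 (1648 CPM in WT and 894 CPM in CD169-DTR). It was highest in the one led by Retnla, Clec4e and Cxcl2 in WT (3557 CPM) and in the one led by Ear2, Adgre4 and Treml4 in CD169-DTR (2600 CPM). Klf4 was highest in the Ear2 cluster of both libraries (555 and 715 CPM). The leading genes of this cluster held Ace and Treml4 of patrolling monocytes and also F13a1, Hp and Chil3 of classical monocytes. At a cluster resolution of 2 they led separate clusters, with Klf4 at 704 and 1024 CPM in the one led by Ear2 and at 444 and 438 CPM in the one led by F13a1. Maf was lowest in the Ear2 cluster (68.6 and 81.8 CPM), and reached 207 CPM in the Gpnmb cluster of WT. The border-associated macrophage markers named no cluster and summed to 308 and 407 CPM in macrophages.

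Of 52 other myeloid factors, 51 could be compared between macrophages and microglia. Of these, 11 were at least 2-fold higher and 9 at least 2-fold lower in macrophages of both libraries. Spic, a PU.1 relative of tissue macrophages, was at 15.8 and 22.1 CPM against 0.33 and 0.20 CPM in microglia. Runx3 (127 and 114 CPM against 2.89 and 1.34) and Nr1h3, the liver X receptor alpha (43.5 and 35.5 CPM against 1.47 and 0.91), had the next largest ratios. Sall3, a relative of Sall1, was at 5.16 and 4.47 CPM in macrophages and 71.0 and 88.6 CPM in microglia, and Zeb1 and Ets1 were the other 2 lowest, with log2 ratios of -2.44 and -2.92 for Zeb1 and of -3.09 and -2.40 for Ets1. None of the 10 monocyte and inflammatory factors of the list passed 2-fold in both libraries, in either direction.

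**Figure D3:**
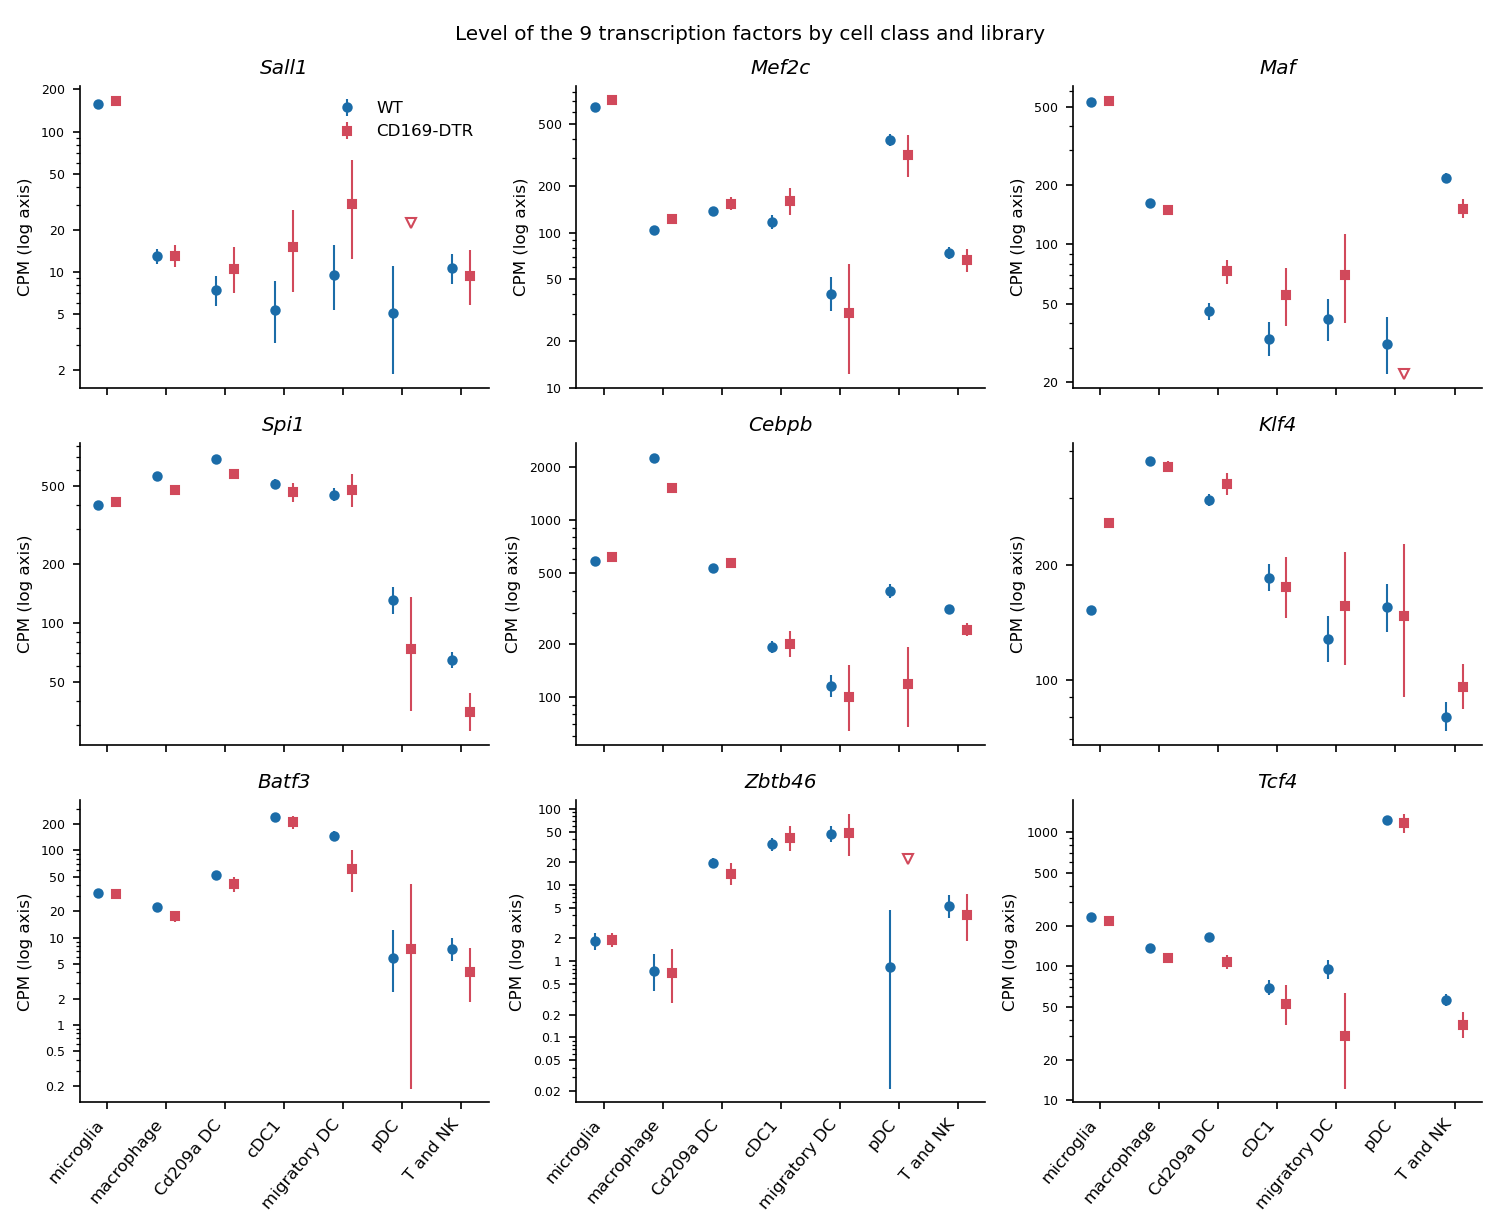
Level of each of the 9 genes (y axis, CPM on a log axis) in 6 myeloid classes and in T and NK cells (x axis), with points for the WT and CD169-DTR libraries and bars for exact 95% Poisson intervals; an open triangle marks a class with 0 UMIs at the level that 3 UMIs would give. Sall1 is highest in microglia (156 and 165 CPM), Cebpb in macrophages (2271 and 1526 CPM), Batf3 in cDC1 (243 and 210 CPM) and Tcf4 in pDC (1230 and 1172 CPM).

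The conventional dendritic cells (Cd209a, cDC1 and migratory together) were set against macrophages. Batf3 and Zbtb46 were at least 2-fold higher in both libraries (2 of 9 genes, 5.8% of 12614 genes), and Maf and Cebpb at least 2-fold lower (2 of 9, 6.28% of genes). The medians of the 9 genes, -0.01 and -0.05, were near those of all genes, -0.03 and -0.03. Zbtb46 was at 26.0 and 21.3 CPM in conventional dendritic cells and at 0.75 and 0.71 CPM in macrophages, a log2 ratio of 5.11 (4.35 to 6.00) and 4.90 (3.79 to 6.26). Batf3 was at 107 and 73.1 CPM against 22.4 and 17.6 CPM, a log2 ratio of 2.25 and 2.06. Cebpb had log2 ratios of -2.48 and -1.68, and Maf of -1.93 and -1.11. With every cell at the same weight, Maf was at -0.91 in CD169-DTR and no longer passed 2-fold. Spi1 was at 619 and 549 CPM in dendritic cells and 561 and 473 CPM in macrophages. The 13 macrophage markers summed to 9743 and 9148 CPM in Cd209a dendritic cells. Of the other 52 factors, 5 were higher and 10 lower. Spib (15.5 and 4.91 CPM against 0.38 and 0.10), Bcl11a and Irf4 led the higher ones. Nr1h3 (7.06 and 6.27 CPM against 43.5 and 35.5 CPM) and Tfec (2.00 and 3.00 CPM against 19.2 and 16.3 CPM) were among the lower ones.

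The dendritic classes each had their own mix of the 9 genes. In cDC1, Batf3 was at 243 CPM (227 to 261) in WT and 210 CPM (177 to 248) in CD169-DTR, above migratory dendritic cells (146 and 60.9 CPM), Cd209a dendritic cells (52.9 and 40.8 CPM) and all other classes. It was the single one of the 9 genes at least 2-fold higher in cDC1 than in the other conventional dendritic cells (3.0% of 11168 genes), with log2 ratios of 1.87 (1.72 to 2.02) and 2.31 (1.95 to 2.67), and Cebpb was the single one at least 2-fold lower (6.38% of genes), with -1.31 and -1.43. After thinning, 62.1% of 177 WT and 59.4% of 32 CD169-DTR cDC1 held a Batf3 UMI, against 1.55% and 0.77% of T and NK cells. Irf8, the partner of BATF3 in this lineage, was at 1570 and 1773 CPM in cDC1 against 302 and 193 CPM, and Id2 at 1528 and 1432 CPM against 502 and 418 CPM. Id3 and Zeb2 had log2 ratios of -3.60 and -4.66, and of -2.82 and -3.17.

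Cd209a dendritic cells had the highest Spi1 level of the dendritic classes, at 685 CPM (668 to 702) in WT and 576 CPM (548 to 605) in CD169-DTR. Cebpb and Tcf4 were at least 2-fold higher there than in cDC1 and migratory dendritic cells (2 of 9 genes, 4.76% of genes), and Batf3 was at least 2-fold lower (1 of 9, 3.89% of genes). Cebpb was at 533 and 575 CPM against 165 and 174 CPM, and Tcf4 at 167 and 108 CPM against 78.1 and 46.6 CPM, where Tcf4 fell short of 2-fold at a cluster resolution of 2 (0.80 in WT). Klf4, which some conventional dendritic cells need for their development, was at 298 and 328 CPM against 167 and 171 CPM. Its log2 ratios of 0.84 and 0.94 stopped short of 2-fold. With every cell at the same weight they were 1.00 and 1.19, which passed it. Zbtb46 was at -0.997 and -1.62, and passed 2-fold at a cluster resolution of 2 (-1.06 in WT), with at most 10% mitochondrial UMIs (-1.01) and with every cell at the same weight (-1.07). Of the other factors Cebpa, Zeb2 and Id3 were furthest above, and Irf8, Id2 and Relb furthest below.

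Migratory dendritic cells, which carry Ccr7 and move to lymph nodes, had Zbtb46 at 47.4 CPM (37.3 to 59.4) in WT and 47.9 CPM (23.9 to 85.6) in CD169-DTR, an interval that overlapped cDC1 (34.6 and 41.7 CPM) and not Cd209a dendritic cells (19.5 and 14.1 CPM). Zbtb46 was the 1 gene of the 9 at least 2-fold higher than in the other 2 classes (5.54% of genes), with log2 ratios of 1.02 and 1.30, and it did not pass 2-fold when the cell with the most Zbtb46 UMIs was left out or when the libraries were merged without integration. Mef2c (40.4 and 30.5 CPM) and Cebpb (115 and 100 CPM) were at least 2-fold lower (2 of 9, 7.58% of genes). The CD169-DTR values rest on 14 cells. Relb, an NF-kB subunit, was at 883 and 770 CPM against 94.5 and 77.1 CPM, and Bcl11a had log2 ratios of -4.78 and -3.14.

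In pDC, Tcf4 stood at 1230 CPM (1168 to 1295) in WT and 1172 CPM (997 to 1369) in CD169-DTR, above endothelial cells at 702 and 738 CPM, B cells at 291 and 246 CPM and microglia at 232 and 218 CPM. Tcf4 and Mef2c were at least 2-fold higher than in the conventional dendritic cells (2 of 9 genes, 8.78% of 11373 genes), with log2 ratios of 3.17 (3.07 to 3.27) and 3.66 (3.38 to 3.94) for Tcf4, and 1.70 and 1.11 for Mef2c. Without the cell holding most Mef2c UMIs the CD169-DTR ratio of Mef2c was 0.64. Spi1 and Batf3 were at least 2-fold lower (2 of 9, 3.82% of genes), Spi1 no longer so at a cluster resolution of 2 (-0.76 in CD169-DTR), and Batf3 in CD169-DTR rests on 1 UMI. Spi1 was at 130 and 73.7 CPM, below the other 5 myeloid classes compared. A pDC held a Tcf4 UMI after thinning in 95 of 100 WT and 11 of 11 CD169-DTR cells. The free RNA held Tcf4 at 105 CPM in WT and 102 CPM in CD169-DTR. Without thinning 76.2% of WT and 76.1% of CD169-DTR microglia held a Tcf4 UMI, so these shares alone do not set pDC apart. Spib (287 and 302 CPM), Runx2 (358 and 243 CPM) and Ets1 were the other factors furthest above, and Id2, an inhibitor of E proteins such as TCF4, was at 125 and 118 CPM against 735 and 603 CPM. Zbtb46 was found as 1 UMI in WT pDC and 0 in CD169-DTR pDC, where 3 UMIs would give 22.1 CPM.

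**Figure D4:**
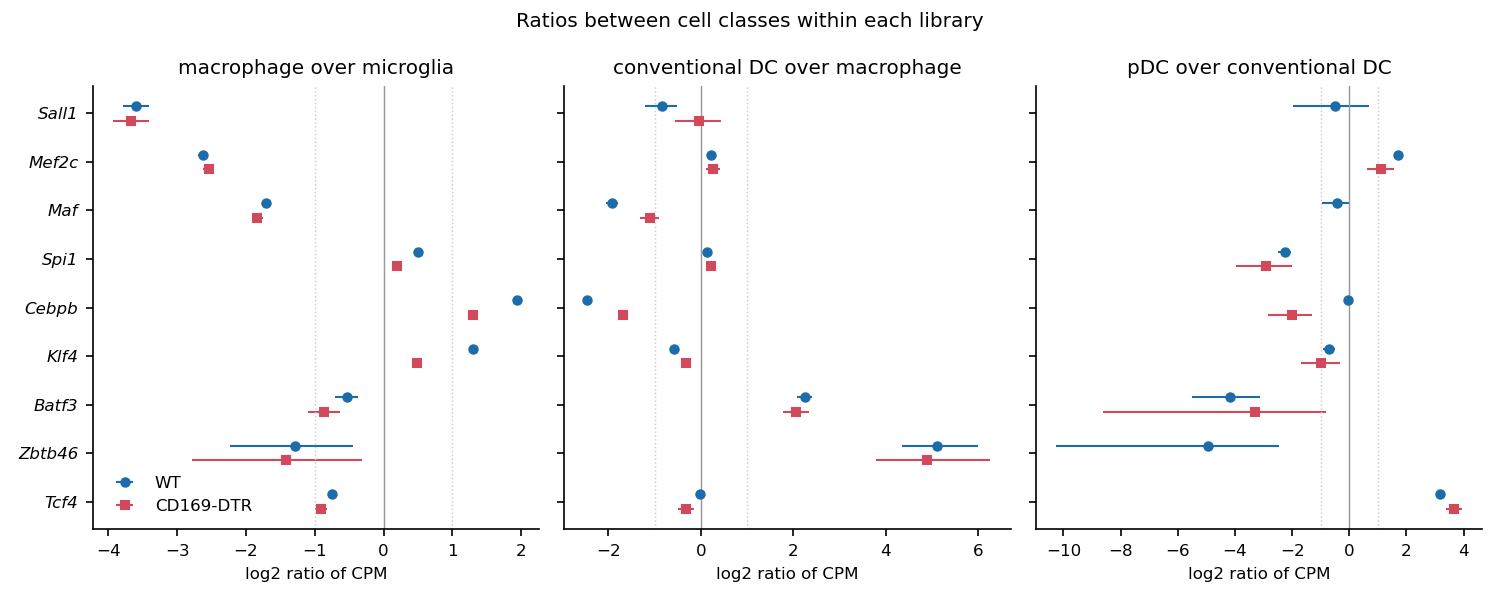
The log2 ratio of CPM between 2 cell classes (x axis) for each of the 9 genes (y axis) in the WT and CD169-DTR libraries, with exact 95% conditional intervals; dotted lines mark 2-fold, and ratios with 0 UMIs in a class are not drawn. Sall1, Mef2c and Maf lie on the microglia side of the first panel, Batf3 and Zbtb46 on the dendritic side of the second (Zbtb46 at 5.11 and 4.90), and Tcf4 and Mef2c on the pDC side of the third.

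Over the 17 class and library profiles with at least 50 cells, the genes whose log2(CPM + 1) was most like each factor were ranked by Pearson correlation among 11637 genes. This is a description, since the profiles share their libraries. Sall1 was most like Cd81 (0.990), Olfml3 (0.990) and Sparc (0.987), 2 of which are on the microglia marker list. Outside the microglia, Sall1 lay near or below the share of the microglia markers in most classes. The part of free RNA and doublets in these correlations was not tested. Mef2c was nearest to Snx29 (0.905), Hhex (0.895) and Cd180 (0.878). Spi1 was nearest to Ifngr2 (0.959), Csf2ra (0.939) and Nrros (0.932), Zbtb46 to Zfp366 (0.882), and Batf3 to Hfe (0.899). The gene second nearest to Cebpb was Tmem189 (0.952), the overlapping gene. Among the 9 genes, the highest correlations were 0.77 between Sall1 and Maf, 0.76 between Mef2c and Tcf4, and 0.69 between Batf3 and Zbtb46.

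The second question was how the 2 libraries differed within a class. Siglec1, the gene with the DTR insertion, was at 18.4 CPM in WT and 5.38 CPM in CD169-DTR microglia, 37.6 and 11.98 CPM in macrophages, 10.5 and 3.61 CPM in Cd209a dendritic cells, and 3 and 0 UMIs in cDC1. WT exceeded CD169-DTR by a log2 ratio of 1.77 (1.56 to 1.99) in microglia and 1.65 (1.37 to 1.95) in macrophages, with 1 copy of the gene replaced in every CD169-DTR cell. The classes also differed in size, macrophages making up 26.3% of the immune cells in WT and 11.7% in CD169-DTR. Cell depth differed too, with a median of 7222 UMIs in WT and 11792.5 UMIs in CD169-DTR macrophages.

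A WT over CD169-DTR log2 ratio of 0.5 or more in size was reached by 1 of 9 genes in microglia (10.0% of 13530 genes), 1 in macrophages (20.6% of 11769 genes), 3 in Cd209a dendritic cells (24.9% of 10535 genes) and 2 in cDC1 (29.3% of 8334 genes). The shares among all genes are larger in the smaller classes. The median log2 ratio of the 9 genes was -0.06 in microglia and 0.11 in macrophages, beside -0.04 and -0.05 over all genes. In microglia, 8 of the 9 genes lay between -0.14 (Mef2c) and 0.09 (Tcf4), with Sall1 at -0.08 (-0.13 to -0.03), Maf at -0.02 and Spi1 at -0.05. For Maf this joins clusters that differed. Its ratio was above 0 in 6 of the 8 microglia clusters, 5 of them with intervals above 0, and reached 0.58 (0.45 to 0.72) in the Cd5l cluster and 0.48 (0.29 to 0.68) in the Ccnb2 cluster, while it was -0.15 (-0.25 to -0.06) in the Cxcl13 cluster. With every cluster at the same weight it was 0.11. Tcf4 also had 3 cluster intervals above 0 and none below, with 0.36 (0.20 to 0.52) in the Cd5l cluster, and Mef2c had 5 below and none above. Sall1 had 1 below and none above. The Slc2a5 cluster, where Sall1 was highest, made up 28.6% of WT and 36.6% of CD169-DTR microglia, and the Sall1 ratio in it was 0.02. With every cluster at the same weight the Sall1 ratio was -0.03.

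The exception in microglia was Klf4, at 152 CPM (148 to 156) in WT and 259 CPM (255 to 264) in CD169-DTR, a log2 ratio of -0.77 (-0.81 to -0.72). All 8 clusters of microglia had the same direction, from -0.17 (-0.33 to -0.01) in the Mki67 cluster to -1.43 (-1.70 to -1.17) in the cluster led by Uhrf1, and no interval included 0. After thinning, 26.5% of WT and 36.7% of CD169-DTR microglia held a Klf4 UMI, beside 18.1% and 19.9% of T and NK cells. In macrophages the log2 ratio of Klf4 was 0.05 for the whole class, which joins clusters of opposite direction. It was 0.50 (0.41 to 0.60) in the Gpnmb cluster, -0.17 (-0.30 to -0.05) in the Vcan cluster, -0.37 (-0.50 to -0.23) in the Ear2 cluster and -0.15 (-0.32 to 0.01) in the Retnla cluster. At a cluster resolution of 2, Gpnmb was among the leading genes of 2 clusters. The Klf4 ratio was -0.12 (-0.28 to 0.03) in the one led by Slfn4 and 0.33 (0.21 to 0.45) in the one led by Gpnmb and Pf4. With every cluster at the same weight the macrophage ratio was -0.11. Klf4 was at -0.14 in Cd209a dendritic cells and 0.08 in cDC1, and the difference between classes was not tested. The 15 dissociation genes summed to 9483 CPM in WT and 12152 CPM in CD169-DTR microglia, lower in WT in 7 of 8 clusters, and to 15463 and 12938 CPM in macrophages, higher in WT in 4 of 4 clusters. Klf6 (505 and 711 CPM) and Nr4a1 (77.1 and 107 CPM) were among the 3 other factors furthest below in WT microglia. The part of dissociation in the Klf4 values was not tested.

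In macrophages, Cebpb was at 2271 CPM in WT and 1526 CPM in CD169-DTR, a log2 ratio of 0.57 (0.55 to 0.60). By cluster the ratio was 0.88 in the Gpnmb, 0.27 in the Vcan, -0.01 in the Ear2 and 0.55 in the Retnla cluster. The cells of the Gpnmb cluster differed in depth between the 2 libraries, with a median of 5062 UMIs in 981 WT cells and 16832 UMIs in 313 CD169-DTR cells. Its dissociation genes summed to 15144 CPM in WT and 11122 CPM in CD169-DTR. At a cluster resolution of 2, Gpnmb was among the leading genes of 2 clusters. One, led by Slfn4, held 663 WT and 91 CD169-DTR cells, with median depths of 3394 and 6360 UMIs and a Cebpb ratio of 0.48 (0.39 to 0.57). The other, led by Gpnmb and Pf4, held 395 and 231 cells, with 8893 and 19292 UMIs and a ratio of 0.64 (0.58 to 0.70). The part of depth and dissociation in these ratios was not tested. The Ear2 cluster made up 9.04% of WT and 20.4% of CD169-DTR macrophages. With every cluster at the same weight the class ratio was 0.37, with every cell at the same weight 0.41, and without integration 0.32, all below 0.5. The clustering without integration also changed the class, since 34.4% of the WT and 82.4% of the CD169-DTR cells of the Gpnmb cluster fell into clusters that stayed unnamed. Without the cells of highest doublet score Sall1 (-0.90) and Mef2c (-0.57) also passed 0.5 in size. The class ratio of Spi1 was 0.25, and 2 of the 4 clusters had intervals above 0 and none below. Batf3 was at 0.35, with 1 interval above 0 and none below. Mef2c was at -0.23, with 3 intervals below 0 and the Gpnmb cluster at 110 CPM in both libraries. At a cluster resolution of 2, the Mef2c ratio was below 0 in both clusters with Gpnmb among their leading genes. It was -0.29 (-0.56 to -0.02) in the one led by Slfn4. In the one led by Gpnmb and Pf4 it was -0.23 (-0.43 to -0.04). The class ratio of Tcf4 (0.25) lay above that of each cluster. Those were 0.15 in the Gpnmb, 0.17 in the Vcan and 0.03 in the Retnla cluster, with intervals that included 0, and -0.60 (-1.02 to -0.19) in the Ear2 cluster. With every cluster at the same weight the Tcf4 ratio was 0.02. Maf, at 0.11 in the class, was at 0.37 in the Gpnmb cluster and between -0.46 and -0.17 in the other 3. The 0.37 was not seen in either Gpnmb cluster at a cluster resolution of 2. There the Maf ratio was -0.004 (-0.22 to 0.22) in the one led by Slfn4. In the one led by Gpnmb and Pf4 it was 0.09 (-0.06 to 0.25).

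In Cd209a dendritic cells the 3 genes past 0.5 were Tcf4 (167 CPM in WT and 108 CPM in CD169-DTR, log2 ratio 0.63, 0.45 to 0.82), Maf (45.7 and 73.0 CPM, -0.68, -0.92 to -0.43) and Sall1 (7.35 and 10.5 CPM, -0.51, -1.16 to 0.17). The Sall1 interval included 0, and its level, at 4.71% and 6.36% of microglia, was below the share of the microglia markers (6.86% and 9.39%) and was not read as expression. In cDC1 the 2 genes were Sall1 (17 and 10 UMIs, -1.48) and Maf (106 and 37 UMIs, -0.73, -1.28 to -0.15). The microglia markers moved with Sall1 and Maf, at 1621 CPM in WT and 2307 CPM in CD169-DTR Cd209a dendritic cells, and 974 and 1642 CPM in cDC1, and their part in these ratios was not tested. Without the cells of highest doublet score the Sall1 ratio was -2.42 in Cd209a dendritic cells. In that setting cDC1 kept 4 and 9 Sall1 UMIs, under the 20 UMIs a ratio needed to be counted. The Maf ratio in that setting was -1.06 in Cd209a dendritic cells and -1.25 in cDC1, and without integration it was -0.28 and -0.08. The Sall1 ratio in Cd209a dendritic cells fell below 0.5 in size with at least 2000 UMIs per cell (-0.46), at a cluster resolution of 2 (-0.36), without integration (-0.37), with median of ratios scaling (-0.496) and without the cell with the most Sall1 UMIs (-0.35). The Zbtb46 ratio there (0.46) passed 0.5 with at least 2000 UMIs per cell (0.504) and without the cell with the most Zbtb46 UMIs (0.54). The Maf ratio in cDC1 was -0.48 without the cell with the most UMIs of the gene, where the Tcf4 ratio in cDC1 (0.41 with all cells) was 0.54. With every cell at the same weight the Mef2c ratio in cDC1 (-0.45 in the main setting) was -0.502 and passed 0.5 in size. The Tcf4 ratio in Cd209a dendritic cells was 0.39 at a cluster resolution of 2, below 0.5. At that resolution the pDC cluster held 137 WT and 14 CD169-DTR cells in place of 102 and 11. The pDC markers in Cd209a dendritic cells moved with Tcf4, the list of 10 summing to 1660 CPM in WT and 1185 CPM in CD169-DTR, of which Bst2 gave 1471 and 1080 CPM, with 1 and 3 of its genes at 0. Spib, a factor of pDC, was at 13.9 and 4.34 CPM there. Bst2 was also higher in WT in microglia (1808 and 1248 CPM), macrophages (1655 and 1170 CPM) and cDC1 (1075 and 666 CPM). Its direction was thus not particular to the Cd209a class. The part of pDC in the Tcf4 ratio was not tested. Of the listed factors, Irf7, an interferon-induced gene, was among the 3 furthest above in WT in all 4 classes, at 350 and 225 CPM in microglia, 1582 and 655 CPM in macrophages, 1603 and 631 CPM in Cd209a dendritic cells and 1794 and 1124 CPM in cDC1. Bcl11a, also a factor of pDC, was higher in WT Cd209a dendritic cells (98.4 and 42.3 CPM) and cDC1 (52.2 and 22.4 CPM). The migratory dendritic cells (14 cells) and pDC (11 cells) of the CD169-DTR library were too few for such ratios to be described.

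**Figure D5:**
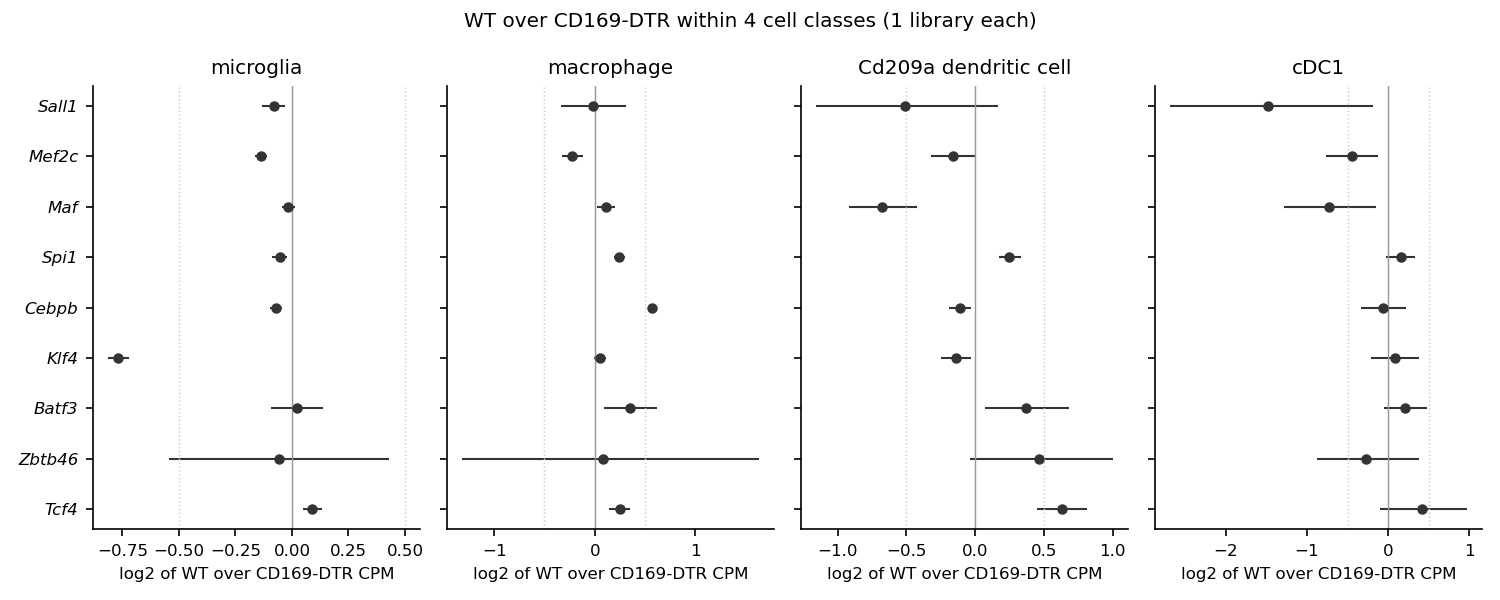
The ratio of WT to CD169-DTR CPM on the log2 scale (x axis) of the 9 genes (y axis) in 4 cell classes, with exact 95% conditional intervals that cover counting error only; dotted lines mark 0.5 in size, and each panel has its own x axis. In microglia Klf4 (-0.77) stands apart from the other 8 genes, and in macrophages Cebpb (0.57) is the one past the line.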

How the data were processed

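The authors deposited raw UMI counts per gene and droplet barcode, made per the submitters' processing notes with Cell Ranger 3.1.0 on mm10, from 3' end libraries of cells pooled from 3 mice. All barcodes were deposited, with no cell calling. Library totals were 101808996 UMIs for WT and 84065489 UMIs for CD169-DTR, and cells above 17% mitochondrial UMIs (249 and 218) were removed. Cells were clustered in Seurat 5.3.0 (R 4.3.3) after the study's settings: log-normalisation, 2000 variable features, integration on 50 dimensions, neighbours on 30 dimensions and resolution 1. The 9 genes and the 52 other listed factors were left out of the features. A cluster took the name of the marker list with the highest mean standardised level. A marker was detected at 25% or more of its highest cluster level with at least 10 UMIs, and a cluster stayed unnamed with under 3 detected markers or with more markers of another class than of its own among its top 10 genes. These naming thresholds were set after the data had been seen. The members, marker lists and factor lists were chosen with earlier results of these data known.

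UMIs were summed per class and library. Levels carry exact Poisson intervals, ratios exact conditional intervals and shares of thinned cells Clopper-Pearson intervals (scipy 1.17.1, Python 3.11.15). UMI counts are independent molecules only as far as the identifiers separate them, and intervals cover counting error only. Class ratios counted at 2-fold or more in the same direction in both libraries, and WT over CD169-DTR ratios at a log2 of 0.5 or more in size, among genes with at least 20 UMIs. A count of 0 was given a floor of 3 UMIs. All 9 members are named throughout. Of the other factors with at least 100 UMIs, the 3 highest and the 3 lowest in each comparison were chosen by rule, of which the text names those it describes, and 1 item is not reported here. Free RNA was estimated from barcodes of 10 to 100 UMIs and from lymphocytes with at most 10 microglia marker UMIs. Doublets were not removed, and the alternative without the 8% of cells of highest Scrublet score (scanpy 1.11.5) is 1 of 14 alternatives planned, with 1 added after seeing the data. Tcf4 has no position or sequence shown here. The functions that compute the intervals were tested on simulated data.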

Additional observations from a re-analysis of the deposited data

Results flagged for a closer look

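Endothelial cells (402 WT and 279 CD169-DTR cells) were not used in the comparisons of myeloid classes. Klf4, Tcf4 and Zbtb46 were higher there than in microglia, macrophages, Cd209a dendritic cells and granulocytes of both libraries. The share of all genes with this pattern was not counted, so the number of members is not read as a result. Klf4, which endothelial cells use in response to flow, was at 700.3 CPM in WT and 763 CPM in CD169-DTR, above every myeloid class. Tcf4 was at 702 CPM in WT and 738 CPM in CD169-DTR, second to pDC. Zbtb46 was at 31.8 CPM in WT and 32.9 CPM in CD169-DTR, beside 34.6 and 41.7 CPM in cDC1. Mef2c was at 357 CPM in WT and 348 CPM in CD169-DTR endothelial cells, below microglia and above macrophages (104 and 122 CPM).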

How the results depend on the processing

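No value called in the main setting changed its sign under the alternatives that were run. Of 174 counts, 26 moved by more than 1.5 times. The single values were judged by another measure. Of these, 146 of 972 levels, 117 of 941 class ratios, 47 of 378 WT over CD169-DTR ratios and 161 of 216 shares moved beyond their counting interval. With every cell at the same weight, 1 gene in place of 2 was lower in conventional dendritic cells than in macrophages, 2 in place of 1 were lower in Cd209a than in the other conventional dendritic cells, 1 in place of 2 was higher in pDC, and 2 in place of 1 differed between libraries in macrophages (Batf3 at 0.501 and Zbtb46 at 1.14, while Cebpb no longer did). At a cluster resolution of 2, 1 gene in place of 2 was higher and 2 in place of 1 were lower in Cd209a dendritic cells, 1 in place of 2 was higher and 1 in place of 2 lower in pDC, and 1 in place of 3 differed between libraries in Cd209a dendritic cells. With at most 10% mitochondrial UMIs, 2 in place of 1 were lower in Cd209a dendritic cells. Without the cell with the most UMIs of each gene, 2 in place of 1 were lower in cDC1, 0 in place of 1 were higher in migratory dendritic cells, 1 in place of 2 was higher in pDC, and 1 in place of 2 differed between libraries in cDC1 (Tcf4 passed 0.5, Maf did not, and Sall1, at 19 UMIs, was not counted). Without integration, 0 in place of 1 were higher in migratory dendritic cells, and 0 in place of 1 (macrophages, where Zbtb46 at -0.54 was under the 20 UMIs needed to be counted), 1 in place of 3 (Cd209a dendritic cells) and 1 in place of 2 (cDC1) differed between libraries. Without the cells of highest doublet score, 3 in place of 1 differed in macrophages and 1 in place of 2 in cDC1 (Maf, with Sall1 at 13 UMIs not counted), and with every cluster at the same weight 0 differed in macrophages. At 1.5-fold, the other factors came to 8 in place of 5 (higher in conventional dendritic cells than in macrophages), 6 in place of 3 (lower in Cd209a dendritic cells), 22 in place of 13 (lower in cDC1), 11 in place of 7 (higher in migratory dendritic cells) and 12 in place of 7 (lower in pDC). The cause of these shifts was not tested.

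The Klf4 ratio in microglia lay between -0.82 and -0.71 under every alternative run. No paired analysis was possible because each group has 1 library, and for the same reason no library could be left out. Classes of 14 and 11 CD169-DTR cells limit what can be read for migratory dendritic cells and pDC.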

Other observations

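A small unnamed cluster led by the hemoglobin genes Hbb-bs, Hbb-bt and Hba-a2 (74 WT and 68 CD169-DTR cells) also held the microglia factors. Sall1 was at 188 CPM in WT and 225 CPM in CD169-DTR, Mef2c at 1121 and 1286 CPM, and Maf at 885 and 1222 CPM. These cells entered no class.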
